A study of Mus musculus with 8 samples.

Results

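Transcripts of 3 genes that make or remove peroxides, Duox1, Prdx2 and Gsta4, were followed in the submandibular gland, a major salivary gland, of mice on different diets. They were taken as the probes whose transcript accession belongs to one of these genes, which gave 1 probe for each gene, 3 of the 46 genes that could be named on the arrays. All samples came from male mice aged 20 weeks. The Ctrl group, 4 samples, received normal chow. The DIO (diet-induced obesity) group, 4 samples, received a high-fat diet. The labels name no strain, duration of feeding, body weight or animal, so p-values reflect no more than the spread of these samples, part of which may be technical. Each sample was read on 1 one-colour microarray for messenger and long non-coding RNA, and precision is limited by having 4 arrays per group. Of the 85 marker genes listed for acinar, ductal and other cell types of the gland, 5 could be named and none of these marks acinar, ductal or myoepithelial cells, so the labelled tissue was not checked against its own markers.

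Duox1 encodes a dual oxidase, a membrane enzyme that takes electrons from NADPH and releases hydrogen peroxide at the outer cell surface. In airway epithelium this peroxide feeds lactoperoxidase, which turns thiocyanate into an antimicrobial oxidant. Prdx2 encodes a cytosolic peroxiredoxin, which reduces hydrogen peroxide with a reactive cysteine, is regenerated by thioredoxin and is abundant in red blood cells. Gsta4 encodes a glutathione transferase that couples glutathione to hydroxynonenal and related aldehydes formed when membrane lipids are peroxidised. The genes thus stand for a source of hydrogen peroxide, its removal, and the clearing of lipid peroxidation products.

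The Duox1 probe (A_51_P475138, for transcript NM_001099297), the Prdx2 probe (A_51_P147207, for NM_011563) and the Gsta4 probe (A_51_P112223, for NM_010357) were each printed as 10 spots scattered over the array. All 80 spots of each probe over the 8 arrays were well above background and 0 were saturated. A level is the log2 processed signal minus the 75th percentile of its array, averaged over the spots. Because probes differ in how strongly they bind, the level of one probe is not compared with that of another, and each gene is compared with itself between arrays. Probe sequences were not used here, and whether the Duox1 or Gsta4 probe also binds transcripts of related family members was not tested.

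Ctrl array 2 stood apart over the whole array, with a correlation across probes of 0.941 to 0.958 with the other arrays, against 0.981 to 0.990 among those. It lay at least 2-fold from the mean of the other Ctrl arrays for 13.3% of probes, where the other arrays of either group lay that far from theirs for 1.48% to 4.61%. The group comparisons are therefore given with and without it.

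Duox1, the peroxide source, had a mean 1.51-fold that of Ctrl in DIO with all arrays, and 1.12-fold when Ctrl array 2 was left out. Its log2 level was 3.06 on Ctrl array 1, 1.32 on array 2, 3.28 on array 3 and 2.83 on array 4. In DIO it was 3.51 on array 1, 2.88 on array 2, 3.47 on array 3 and 3.02 on array 4. Ctrl array 2 was far lower than every other array, and among the rest the groups overlapped, with 2 of 4 DIO arrays inside the Ctrl range and 2 above it. The Ctrl mean was 2.62 ± 0.89 (SD, n = 4). The DIO mean was 3.22 ± 0.32 (SD, n = 4). The difference of 0.60 (SE 0.40, 95% interval -0.31 to 1.51) did not pass limma's test over all probes (adjusted p = 0.774, unadjusted p = 0.171). Without Ctrl array 2 the Ctrl mean was 3.06 ± 0.23 (SD, n = 3), and the difference was 0.16 (SE 0.20, 95% interval -0.29 to 0.61, limma adjusted p = 0.947). As a fold that is 1.12 (95% interval 0.821 to 1.53), and a 2-fold rise lies outside the interval. With array weights, which count deviating arrays less, the difference was 0.28.

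The low Duox1 value of Ctrl array 2 was present in every spot. At each of the 10 printed positions that array had the lowest Duox1 signal of all 8 arrays. Its 10 spots lay between 1.12 and 1.45 on the log2 scale, and the 8 not marked as outliers between 1.26 and 1.42. Without outlier spots the mean processed signal was 682 there, against 2019.6 to 3044 on the other arrays. The uncorrected signal of these spots on Ctrl array 2 was still 30.3-fold the local background. The SD between spots, also without outliers, was 0.047 on that array and at most 0.16 on any array. The SD between arrays was 0.70 over all 8 and 0.27 without Ctrl array 2. The Duox1 SD within groups, 0.67, exceeded that of 92.8% of the tested probes, and without Ctrl array 2 it was 0.28 and exceeded that of 69.7%.

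Relative to the mean of the other Ctrl arrays, Duox1 was 3.34-fold lower on Ctrl array 2. Of all tested probes, 7.1% were at least 2-fold lower on that array and 1.61% were at least as far below as Duox1. Markers of other cell types also differed there. Mzb1, a protein of the endoplasmic reticulum in B and plasma cells and the single member of a list of 10 that could be named, was at 2.62 on Ctrl array 2 and between -1.10 and -1.05 on the other Ctrl arrays. Chgb, of neuroendocrine granules, was at 0.17 against -2.39 to -0.89, and the myelin gene Mbp at 0.62 against 0.042 to 0.25. Cav2, of the endothelial list, was at 1.77 against 1.43 to 1.54, while the T cell cytokine Il2 was lowest there, at -3.73. Il2 was dim on every array, between -3.73 and -2.85, and how far it lay above the floor was not tested. Chgb and Mbp were also high on DIO array 2. Chgb was at 0.29 on it against -2.65 to -2.16 on the other DIO arrays, and Mbp at 0.53 against -0.40 to 0.068. The part of these cells in the Duox1 value was not tested, and in bulk tissue fewer cells of a type cannot be told apart from less RNA per cell. In DIO, Mzb1 was between 0.82 and 1.15 on arrays 1, 3 and 4, below its level on Ctrl array 2, and at -1.25 on array 2.

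**Figure D1:**
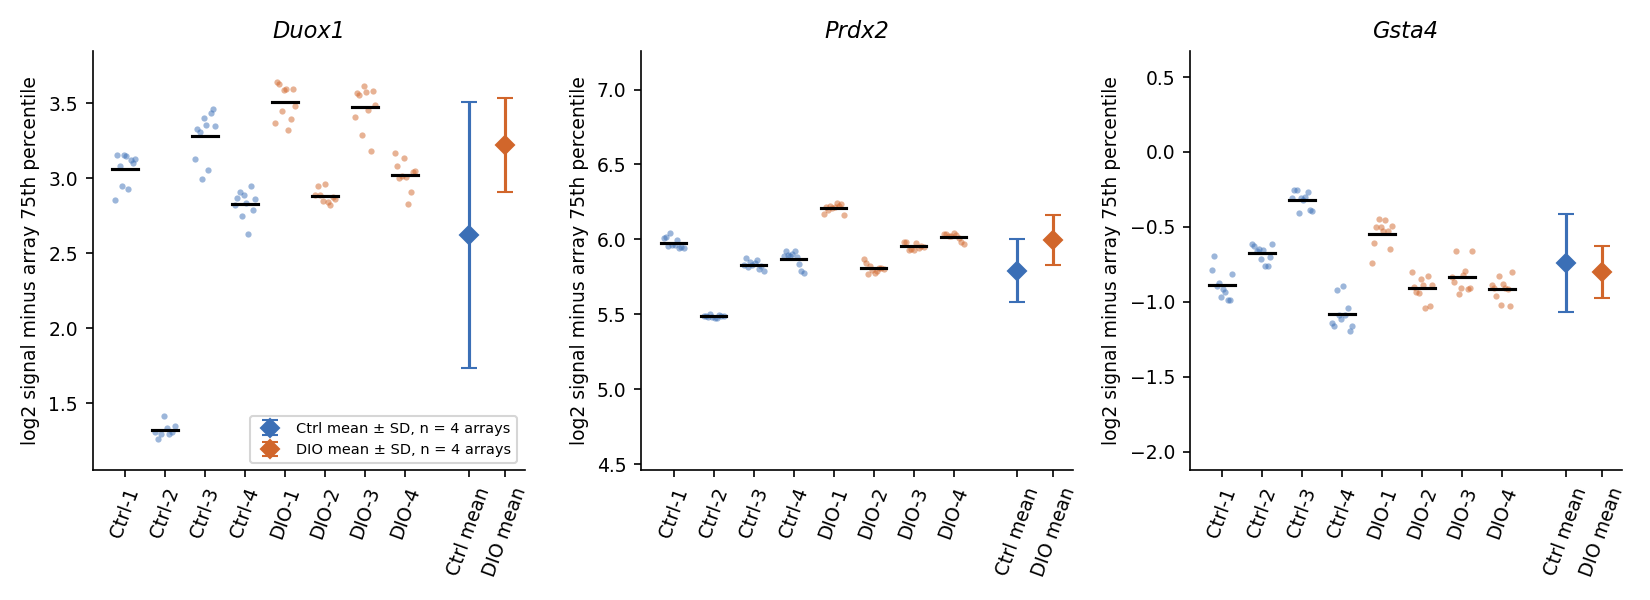
Log2 level (signal minus the 75th percentile of the array) of Duox1, Prdx2 and Gsta4 by array; small points are spots without outliers, black bars the array means, and diamonds the group means with SD over 4 arrays. All panels span the same log2 range. Ctrl-2 is the lowest array for Duox1 at 1.32 and for Prdx2 at 5.49, while Gsta4 is highest on Ctrl-3 at -0.32.

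Prdx2, which removes hydrogen peroxide, had the smallest SD between the 8 arrays of the 3 genes, 0.21, against 0.24 for Gsta4. Its log2 level on Ctrl arrays 1 to 4 was 5.98, 5.49, 5.83 and 5.87. On DIO arrays 1 to 4 it was 6.21, 5.81, 5.95 and 6.02. Here too Ctrl array 2 was the lowest, at 10 of 10 printed positions, and DIO array 1 was the highest at all 10. The groups overlapped, with 2 of 4 DIO arrays above all Ctrl arrays and 2 within their range; without Ctrl array 2, 2 were above, 1 within and 1 below. The Ctrl mean was 5.79 ± 0.21 (SD, n = 4). The DIO mean was 5.997 ± 0.17 (SD, n = 4). The difference of 0.21 (SE 0.15, 95% interval -0.13 to 0.54) did not pass (limma adjusted p = 0.774, unadjusted p = 0.196). The fold was 1.15 (95% interval 0.915 to 1.45), so that a 2-fold change in either direction lay outside the interval.

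The size of the Prdx2 difference changed with the scaling. It was 0.029 with quantile normalization, 0.051 with cyclic loess normalization, which removes trends with brightness, and 0.10 with no scaling between arrays. Without Ctrl array 2 it was 0.10 (95% interval -0.19 to 0.39, limma adjusted p = 0.947), and without DIO array 1 it was 0.13. DIO array 1, the highest in Prdx2 level, also had the lowest 75th percentile of the 8 arrays, 239.8 against 265 to 321 on the others. In unscaled signal the Prdx2 probe was brightest on Ctrl array 4, at 18785, and dimmest on Ctrl array 2, at 12255. Red blood cells are rich in the Prdx2 protein, and 0 of the 7 listed erythroid genes could be named, so their share was not assessed.

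Gsta4, which clears lipid peroxidation aldehydes, differed by less between the group means than among the Ctrl arrays. Its log2 level was -0.89 on Ctrl array 1, -0.68 on array 2, -0.32 on array 3 and -1.08 on array 4. In DIO the values were -0.55, -0.91, -0.83 and -0.91 on arrays 1 to 4. Both the highest and the lowest array were Ctrl, and all 4 DIO arrays lay within the Ctrl range. Ctrl array 3 was the highest at 10 of 10 printed positions, and Ctrl array 2, which was the lowest for Duox1 and Prdx2, was here 0.086 above the mean of the remaining Ctrl arrays. The Ctrl mean was -0.74 ± 0.33 (SD, n = 4). The DIO mean was -0.80 ± 0.17 (SD, n = 4). The difference was -0.060 (SE 0.18, 95% interval -0.47 to 0.35, limma adjusted p = 0.935), a fold of 0.960 with an interval of 0.723 to 1.27. It was -0.038 without Ctrl array 2, and 0.081, the opposite sign, without Ctrl array 3. The uncorrected signal of its probe was 6.58 to 10.7 times the local background. Its SD within groups, 0.26, was near the median of all tested probes, 0.26, and without Ctrl array 2 it was 0.28 against 0.21.

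None of the 3 genes passed the adjusted threshold of 0.05, and neither did any probe on the array (0 of 54187, 0%, limma). At an unadjusted p below 0.05, 0 of the 3 genes and 4.5% of all probes passed, and without Ctrl array 2 again 0 of 3 against 4.09%. The groups failed to overlap for 0 of the 3 genes and for 2.86% of the probes measured on all arrays, and without Ctrl array 2 for 0 of 3 and 4.64%. The 95% interval of the difference reached 2-fold or beyond for Duox1 alone, and for 16.6% of all probes. Without Ctrl array 2 it did so for 0 of the 3 genes and for 9.62% of probes. The median difference over all tested probes was -0.023, beside 0.60 for Duox1, 0.21 for Prdx2 and -0.060 for Gsta4.

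**Figure D2:**
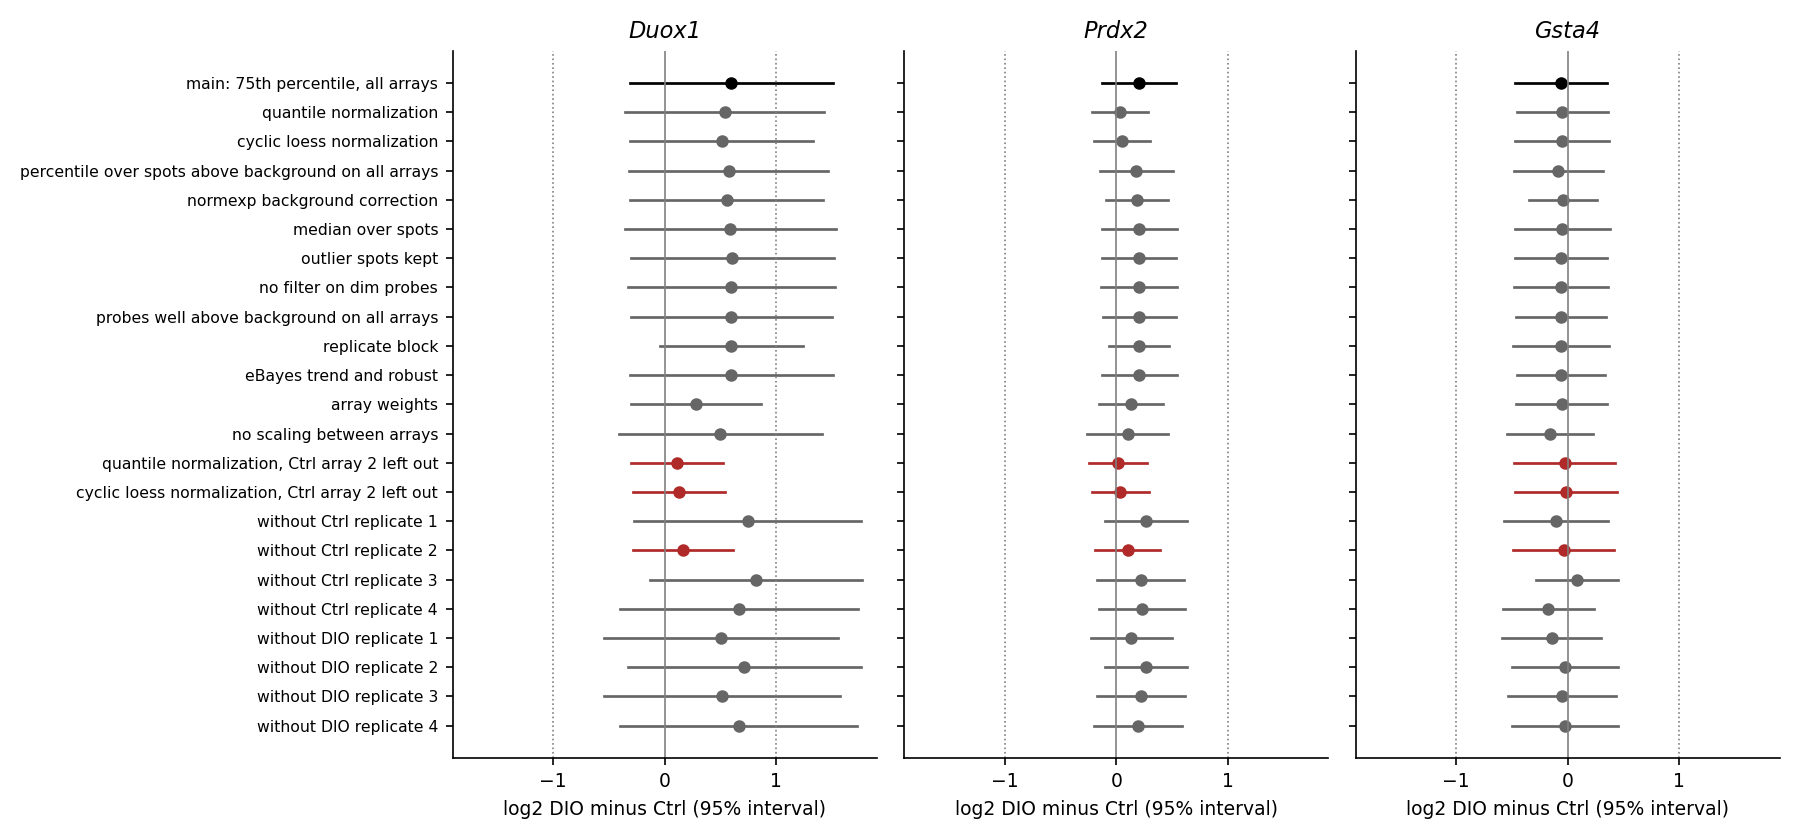
Log2 difference of DIO minus Ctrl with its 95% limma interval for each gene under each setting, with the intervals without Ctrl array 2 in red, the setting used in the text in black and dotted lines at 2-fold in either direction. Every interval includes 0, and the Duox1 difference falls from 0.60 to 0.16 when Ctrl array 2 is left out.

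Of the wider peroxide system, little could be read. Lists of 24 sources of hydrogen peroxide, 25 genes of its removal, 27 genes of lipid peroxide and aldehyde handling and 12 genes of the NRF2 antioxidant response held 88 genes. Duox1, Prdx2 and Gsta4 were the 3 of these with a probe that could be named, 1 in each of the first lists and 0 in the NRF2 list. Partners such as the Duox maturation factors, lactoperoxidase, catalase, thioredoxin and the glutathione peroxidases may lie among the probes without a gene name, and were not analysed here.

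The balance between the transcripts of the peroxide source and of its removal was described by the log2 difference between members on the same array. This difference measures neither protein activity nor peroxide. A scaling factor common to an array cancels in it, so it was the same with either percentile. Only its change between arrays is read, because the probes differ in brightness, and as a score over chosen genes it was given no p-value. Relative to its mean over the 8 arrays, the Duox1 minus Prdx2 difference was 0.057, -1.20, 0.42 and -0.070 on Ctrl arrays 1 to 4. On DIO arrays 1 to 4 it was 0.27, 0.045, 0.49 and -0.020. Ctrl array 2 alone was far from the others, and 3 of 4 DIO arrays lay within the Ctrl range.

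The Duox1 to Prdx2 ratio thus spanned 3.22-fold over 8 arrays and 1.47-fold over the other 7. Its mean was higher in DIO by 0.39, against SDs of 0.70 in Ctrl and 0.23 in DIO (n = 4 each), and by 0.059 without Ctrl array 2, a ratio of 1.04. The fall of Duox1 on Ctrl array 2, -1.74 from the mean of the other Ctrl arrays, was larger than that of Prdx2, -0.41.

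The Duox1 minus Gsta4 difference, source against aldehyde clearance, was -1.70 from its mean on Ctrl array 2 and between -0.090 and 0.61 on the other arrays. Its mean was higher in DIO by 0.66, against SDs of 0.93 in Ctrl and 0.22 in DIO (n = 4 each), and by 0.20 without Ctrl array 2, where 2 of 4 DIO arrays were above all remaining Ctrl arrays. The Prdx2 minus Gsta4 difference had another pattern. It was low on both Ctrl array 2, at -0.50, and Ctrl array 3, at -0.51, the first through a low Prdx2 and the second through a high Gsta4. Its DIO arrays lay close together, with an SD of 0.093 against 0.43 in Ctrl (n = 4 each), and 4 of 4 fell within the Ctrl range. The DIO mean was higher by 0.27, by 0.14 without Ctrl array 2 and by 0.077 with quantile normalization.

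**Figure D3:**
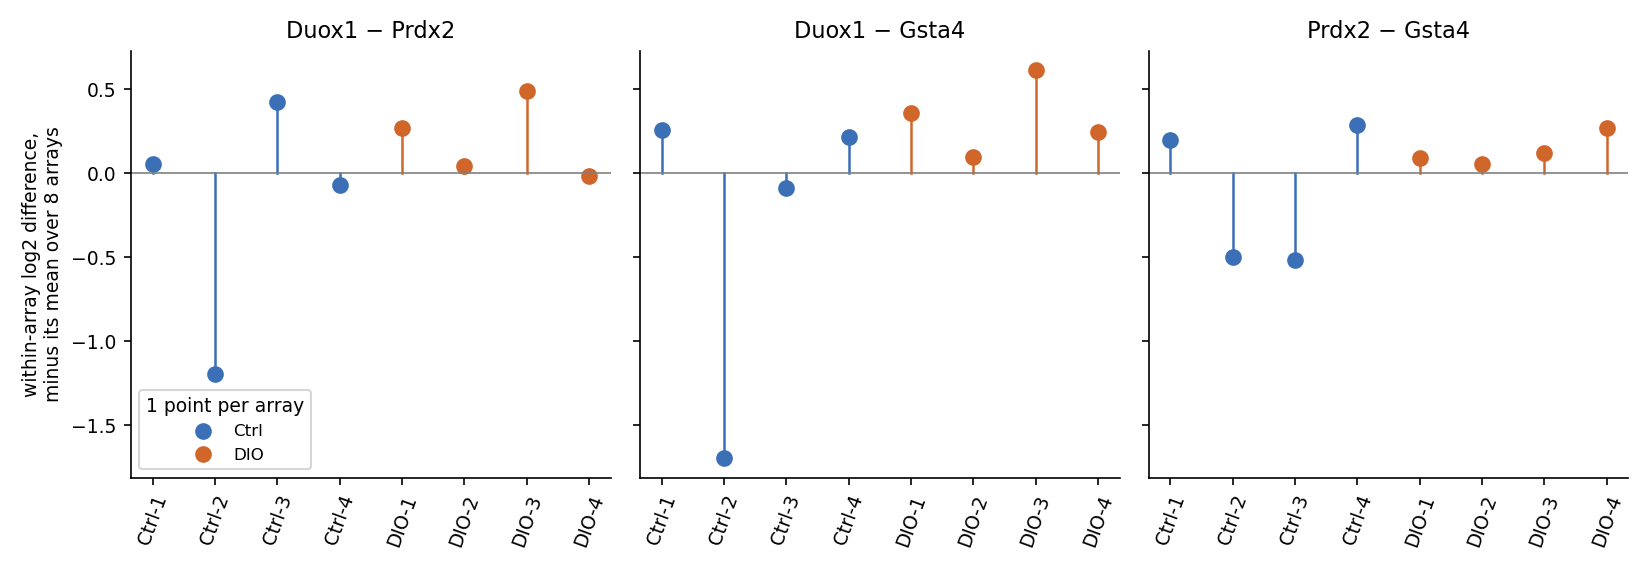
Within-array log2 difference between pairs of the 3 genes, minus its mean over the 8 arrays, with 1 point per array. Ctrl-2 is lowest for both pairs with Duox1, at -1.20 and -1.70, and in those panels the other arrays lie between -0.090 and 0.61.

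Across the 8 arrays Duox1 and Prdx2 varied together (Pearson r = 0.867, exact permutation p = 0.0112, adjusted p = 0.0996 over 126 relations; Spearman rho = 0.667, exact permutation p = 0.0831, adjusted p = 0.317). The relation rested on the arrays at the ends, since r was 0.583 without Ctrl array 2 and 0.237 without Ctrl array 2 and DIO array 1, the arrays farthest from the median of Duox1. Duox1 and Gsta4 gave r = 0.095 over 8 arrays (exact permutation p = 0.817, adjusted p = 0.93; rho = 0.524, p = 0.197, adjusted p = 0.506), 0.669 without Ctrl array 2 (rho = 0.857) and 0.583 without Ctrl array 2 and DIO array 1. Without Ctrl array 3 and DIO array 1, the farthest from the median of Gsta4, it was -0.59, so its sign depended on the arrays used. Prdx2 and Gsta4 gave r = -0.022 (exact permutation p = 0.958, adjusted p = 0.973; rho = -0.071, p = 0.882, adjusted p = 0.934), 0.169 without Ctrl array 2, -0.319 without Ctrl array 2 and DIO array 1, and -0.615 without Ctrl array 3 and DIO array 1. All levels of an array share its scaling, hybridisation and sample. The permutation tests here and below exchanged all 8 arrays freely, across groups, slide rows and sample numbers. Same-numbered arrays had something in common, as described at the end, so these p-values are descriptive only.

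The other 41 named and tested genes were ranked by their correlation with each member over the 8 arrays. For Duox1 the most opposed gene was Nup50, a nuclear pore component (r = -0.953, exact permutation p = 0.00057, adjusted p = 0.0344; rho = -0.929, p = 0.00223, adjusted p = 0.0703). Its r stayed at -0.897 without Ctrl array 2 and was -0.992 without Ctrl array 2 and DIO array 1. Among the genes most like Duox1 were Lhx1, a transcription factor (r = 0.927, exact permutation p = 0.000818, adjusted p = 0.0344; rho = 0.881, p = 0.00724, adjusted p = 0.13), and Actb, cytoskeletal actin (r = 0.923, exact permutation p = 0.0195, adjusted p = 0.119; rho = 0.548, p = 0.171, adjusted p = 0.468). Without Ctrl array 2, r was 0.816 for Lhx1 and 0.421 for Actb. Without DIO array 1 as well, it was 0.849 and 0.125, so the Actb relation rested on those arrays. Lhx1 spanned a far smaller range, from -0.86 on Ctrl array 2 to -0.38 on DIO array 3.

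For Prdx2 the most like gene was Pex11a, a membrane protein of peroxisomes, organelles that both make and break down hydrogen peroxide (r = 0.938, exact permutation p = 0.000546, adjusted p = 0.0344; rho = 0.929, p = 0.00223, adjusted p = 0.0703). Its r was 0.857 without Ctrl array 2 and 0.808 without Ctrl array 2 and DIO array 1. In scaled level Pex11a was lowest on Ctrl array 2, at 2.83, and highest on DIO array 1, at 3.74, as Prdx2 was. DIO array 1 had the lowest 75th percentile, 239.8, which raises every scaled level there, and unscaled Prdx2 signal was highest on Ctrl array 4 instead. The correlations are given for this scaling only. Actb also followed Prdx2 (r = 0.891, exact permutation p = 0.00685, adjusted p = 0.0862; rho = 0.667, p = 0.0831, adjusted p = 0.317), with r at 0.692 without Ctrl array 2 and 0.45 without both arrays. The most opposed gene was Lhfp (r = -0.872, exact permutation p = 0.00394, adjusted p = 0.0552; rho = -0.714, p = 0.0576, adjusted p = 0.302), with r at -0.734 without Ctrl array 2 and -0.70 without both arrays. Of the 5 cell type markers, only the neuroendocrine gene Chgb had an r with Prdx2 that passed (r = -0.815, exact permutation p = 0.00198, adjusted p = 0.0417; rho = -0.952, p = 0.00114, adjusted p = 0.0703). Its r was -0.729 without Ctrl array 2 (rho = -0.964) and -0.805 without both arrays. Cav2 was opposed to Prdx2 to a like degree (r = -0.829, exact permutation p = 0.0209, adjusted p = 0.119). For Mbp r was -0.721, for Mzb1 -0.237 and for Il2, which was dim on every array, 0.546. With Duox1, r was -0.849 for Cav2, -0.722 for Chgb, -0.64 for Mbp, -0.475 for Mzb1 and 0.751 for Il2. The part of such cells in the Prdx2 or Duox1 level was not tested.

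No relation with Gsta4 passed after adjustment among those named. The genes most like it were the class I histocompatibility genes H2-Q7 (r = 0.685, exact permutation p = 0.0695, adjusted p = 0.23; rho = 0.667, p = 0.0831, adjusted p = 0.317) and H2-M2 (r = 0.53, exact permutation p = 0.18, adjusted p = 0.365; rho = 0.667, p = 0.0831, adjusted p = 0.317), whose family members are similar in sequence and may hybridise to one probe. Ppara, a nuclear receptor of lipid metabolism, followed (r = 0.495, exact permutation p = 0.212, adjusted p = 0.411; rho = 0.429, p = 0.299, adjusted p = 0.618). The most opposed gene was Spats1 (r = -0.634, exact permutation p = 0.0911, adjusted p = 0.239; rho = -0.548, p = 0.171, adjusted p = 0.468). Spats1 was dim on every array, with log2 levels between -3.49 and -2.63. Without Ctrl array 2, r was 0.696 for H2-Q7, 0.519 for H2-M2, 0.515 for Ppara and -0.626 for Spats1. Without Ctrl array 3 and DIO array 1, r was 0.758 for H2-Q7, 0.661 for H2-M2, 0.271 for Ppara and -0.821 for Spats1. Over all 126 relations, 6 had an adjusted p below 0.05 for r and 0 for rho.

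**Figure D4:**
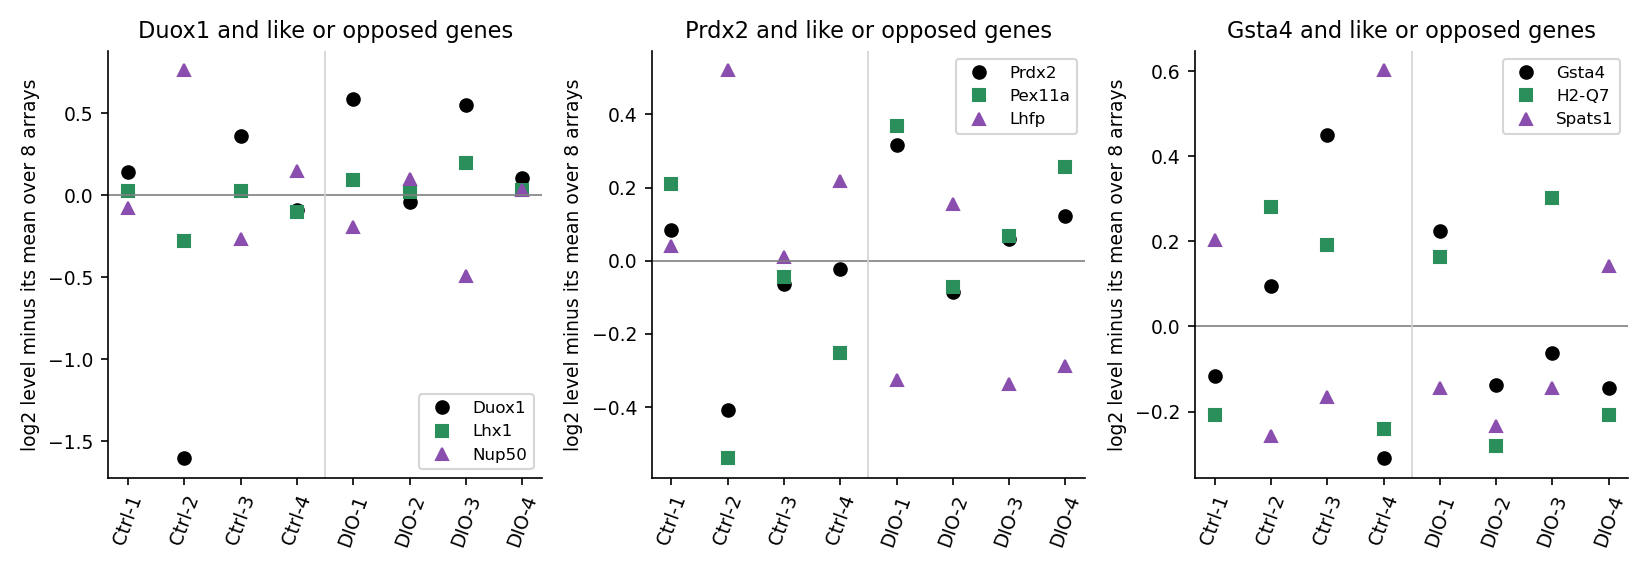
Log2 level minus its mean over the 8 arrays for each gene, with a like gene (squares) and the most opposed gene (triangles), by array, Ctrl to the left of the line. In level scaled to the 75th percentile, Prdx2 and Pex11a share their lowest array, Ctrl-2, and their highest, DIO-1, the array with the lowest percentile. Nup50 is highest on Ctrl-2, where Duox1 is lowest.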

How the data were processed

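The authors deposited 1 scanner file per array. Per the file headers, spots were read in 1 channel. The processed intensity that the authors deposited had its background subtracted and spatial trends removed by Agilent Feature Extraction (version 11.0.1.1 in the submitters' processing notes), with no normalization between arrays. The deposited median intensities of spot and local background are uncorrected, and the other deposited columns used are flags of 0 or 1. Gene names come from RefSeq on GRCm38.p6, another build than the array design's, so coordinates are left out.

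Log2 of the processed signal minus the array's 75th percentile over non-control spots was averaged over the spots of a probe, without control spots and spots marked as outliers (3 for Duox1, 2 for Prdx2, 0 for Gsta4). The percentile was 239.8 to 321, and 89.1% of spots in Ctrl and 86.6% in DIO were well above background on average. Tested were the 54187 of 60823 probes well above background on at least 4 arrays and measured on at least 3 of each group. DIO was set against Ctrl with limma 3.58.1 (lmFit and eBayes in R 4.3.3). Tests were two-sided, and p-values were adjusted over every tested probe by Benjamini-Hochberg. Correlations had exact two-sided permutation tests. Python 3.11.15 and matplotlib 3.10.9 made the plots. The method was tested on simulated data.

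Of 50 probes with an accession, 46 matched a symbol and 44 were tested. The members and lists were chosen with earlier results of these data known. Apart from members and list genes, the text names, for each member, the 3 genes of highest and the 1 of lowest Pearson r. A gene that this rule takes for Duox1 and for Prdx2 is not reported here. All arrays were scanned together, Ctrl in one row of the slide and DIO in the other, so diet and row cannot be told apart, and the position within a row equals the sample number. Alternatives covered normalization, background correction, spot summary, filters, block, variance model, array weights and leaving out arrays; no scaling between arrays was added after seeing the data.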

Additional observations from a re-analysis of the deposited data

Results flagged for a closer look

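None of the 3 genes or their balances had an array whose gap to the nearest other, over the group's range, exceeded the critical value of Dixon at 95%. The nearest was the Duox1 minus Gsta4 difference on Ctrl array 2, with a gap over range of 0.823. Among the cell type markers and the genes most like or opposed to a member, 4 of 30 groups of 4 arrays held such an array. These groups include the gene not reported here. Many of these genes were picked by correlation on the same arrays, and all share those arrays, so no rate expected by chance is given. Mzb1 stood at a log2 level of 2.62 on Ctrl array 2 and at -1.25 on DIO array 2, against 0.82 to 1.15 on the other DIO arrays. Chgb stood at 0.29 on DIO array 2, against -2.65 to -2.16. Lhfp, the gene most opposed to Prdx2, stood at 0.70 on DIO array 2, against 0.21 to 0.26.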

How the results depend on the processing

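Duox1 and Prdx2 kept a higher mean in DIO in all 22 alternatives run, with differences of 0.11 to 0.82 and 0.016 to 0.27, and neither passed in any (limma adjusted p 0.559 to 0.963 and 0.562 to 0.994). Gsta4 was lower in 21 of 22 and turned sign to 0.081 without Ctrl array 3. The filters, the block and the variance model could not move these differences, so for the direction they are no separate evidence. When an array was left out the differences were 0.16 to 0.82 for Duox1, 0.10 to 0.27 for Prdx2 and -0.17 to 0.081 for Gsta4. The Duox1 minus Prdx2 balance was then 0.059 to 0.60, Duox1 minus Gsta4 0.20 to 0.85 and Prdx2 minus Gsta4 0.14 to 0.40. No probe passed the adjusted threshold in any alternative; 2441 had an unadjusted p below 0.05, 1321 without DIO array 1, 1613 without DIO array 3 and 4393 without Ctrl array 3.

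With the replicate number as a block, 0 probes passed and 4522 had an unadjusted p below 0.05 (limma), against 2441 without the block. The Duox1 difference of 0.60 then had an interval of -0.042 to 1.24 (limma adjusted p = 0.559), Prdx2 -0.064 to 0.48 and Gsta4 -0.49 to 0.37. The deviations of same-numbered arrays correlated by 0.286, 0.298, 0.255 and 0.062, and 7 of 8 arrays correlated best with their own number. Same-numbered arrays thus had something in common, and they also share the position within a row of the slide. The labels name no pairing, so the fit in the text leaves the number out, and what these arrays share was not tested. Between same-numbered arrays, DIO was higher in 4 of 4 for Duox1 (0.19 to 1.56) and Prdx2 (0.12 to 0.32) and in 2 of 4 for Gsta4. Without scaling between arrays the median difference of all probes was -0.12. With no filter or a stricter one the values of the 3 genes stay the same, since only the set of tested probes changes.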
